A study of Mus musculus with 8 samples.

Results

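The genes described here are 10 genes of mast cell proteases and receptors in mouse colonic tumors: the proteases Mcpt1, Mcpt2, Mcpt4, Cma1, Cpa3, Tpsb2 and Tpsab1, and the receptor genes Kit, Fcer1a and Ms4a2. They are 10 of the 19938 genes that had a probe set with exactly 1 gene symbol. They were taken by name, and where a gene had several probe sets the one with the highest mean over the 8 arrays was to be used. Rows of a gene were thus to be selected on their mean level over all arrays, a value that compares no groups. Each of the 10 had 1 probe set, so in the end no measured value decided which probe set was read. The 10 genes themselves were chosen with earlier results of these data known.

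Transcript levels came from 8 Affymetrix MoGene 1.0 ST arrays, 1 for each tumor, as log2 signals of robust multi-array average (RMA). The serrated group held 3 serrated tumors of the proximal colon, labelled K-rasG12Dint/Ink4a/Arf-/-, that is, with the K-rasG12D allele and without the Ink4a/Arf locus of cell-cycle inhibitors. The K-rasG12D AOM group held 3 tumors of the distal colon labelled K-rasG12Dint and AOM induced. The LSL AOM group held 2 AOM-induced tumors of the distal colon labelled LSL-K-rasG12D/+, whose sample titles call them wt. AOM is azoxymethane, a colon carcinogen, and LSL is lox-stop-lox, a removable block in front of an allele. An engineered K-rasG12D allele, blocked or not, is thus named for all 3 groups. The recombinase, the strain, the age and sex of the mice, the AOM doses and whether samples came from separate animals are not given in the sources used here. Colon segment, AOM, tumor type and the Ink4a/Arf genotype changed together between the serrated group and both AOM groups and cannot be told apart, and all samples were tumors, so no normal colon stands beside them.

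Mast cells are resident cells of connective tissue and mucosa that store proteases and histamine in granules and release them when IgE bound to their surface meets its antigen. In the mouse, mucosal mast cells of the gut epithelium are known for the chymases Mcpt1 and Mcpt2, while connective tissue mast cells, such as those of the submucosa, are known for the chymases Mcpt4 and Cma1, the tryptases Tpsb2 and Tpsab1 and the carboxypeptidase Cpa3. Kit is the receptor for stem cell factor, on which mast cells depend, and Fcer1a and Ms4a2 encode the alpha and beta chains of the high-affinity IgE receptor.

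The chymase genes Mcpt1 (chr14:56017964-56020391), Mcpt2 (chr14:56021584-56044635), Mcpt4 (chr14:56059744-56062310) and Cma1 (chr14:55941451-55944675) lie in 1 cluster on chromosome 14, in GRCm38.p6 coordinates of the RefSeq gene table. Tpsb2 (chr17:25366308-25368096) and Tpsab1 (chr17:25343245-25345562) are neighbours on chromosome 17, and that table lists Tpsab1 as a transcribed pseudogene. Cpa3 lies at chr3:20215616-20242209, Kit at chr5:75574987-75656722, Fcer1a at chr1:173221269-173227232 and Ms4a2 at chr19:11615517-11623790. The values are for whole-gene probe sets. Whether probes of the related chymase genes, or of the related tryptase genes, also bind each other's transcripts was not tested.

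The promoters of 4 genes are shown because Mcpt1, Mcpt4 and Cpa3 varied together over the arrays, as described below, while Cma1, from the same cluster, was near the low end of the scale. Each runs from 250 bases before the gene start to 50 bases after it, 5′ to 3′ on the gene's strand, from RefSeq on GRCm38.p6. The windows are chr14:56017714-56018013 (plus strand) for Mcpt1, chr14:56062261-56062560 (minus strand) for Mcpt4, chr3:20242132-20242431 (minus strand) for Cpa3 and chr14:55944626-55944925 (minus strand) for Cma1. Capitals mark any of the hexamers AGATAA, the variant of it AGATAG, the form TGATAA or the form TGATAG, on either strand, which are letters that GATA factors are known to bind.
Mcpt1: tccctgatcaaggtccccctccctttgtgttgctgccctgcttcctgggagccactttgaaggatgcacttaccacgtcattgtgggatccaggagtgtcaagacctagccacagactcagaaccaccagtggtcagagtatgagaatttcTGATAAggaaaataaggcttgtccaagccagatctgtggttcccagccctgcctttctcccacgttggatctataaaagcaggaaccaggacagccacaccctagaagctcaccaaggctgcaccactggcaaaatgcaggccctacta
Mcpt4: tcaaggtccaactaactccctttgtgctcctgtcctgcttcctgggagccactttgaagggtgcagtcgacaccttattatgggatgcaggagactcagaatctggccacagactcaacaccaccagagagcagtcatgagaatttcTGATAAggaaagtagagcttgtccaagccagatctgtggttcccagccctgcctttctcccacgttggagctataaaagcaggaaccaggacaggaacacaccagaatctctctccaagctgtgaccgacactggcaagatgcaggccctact
Cpa3: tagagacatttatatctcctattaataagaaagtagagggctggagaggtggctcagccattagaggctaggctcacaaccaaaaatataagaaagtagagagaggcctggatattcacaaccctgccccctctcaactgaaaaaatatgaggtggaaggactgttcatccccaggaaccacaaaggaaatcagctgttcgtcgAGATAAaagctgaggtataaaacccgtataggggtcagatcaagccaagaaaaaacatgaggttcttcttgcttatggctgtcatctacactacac
Cma1: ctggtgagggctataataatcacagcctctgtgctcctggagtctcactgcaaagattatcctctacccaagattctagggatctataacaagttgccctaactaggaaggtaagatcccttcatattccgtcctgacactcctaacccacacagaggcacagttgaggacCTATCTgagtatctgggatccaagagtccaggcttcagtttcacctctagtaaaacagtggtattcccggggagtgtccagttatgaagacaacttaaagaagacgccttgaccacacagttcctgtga
Mcpt1 holds TGATAA 99 bases before its start and Mcpt4 holds it 103 bases before. Cpa3 holds AGATAA 46 bases before its start, and Cma1 holds CTATCT, the reverse complement of AGATAG, 79 bases before. The Mcpt1 and Mcpt4 windows were identical at 249 of 291 aligned positions (85.6%), against 65.0% for Mcpt1 with Cma1 and 55.2% for Mcpt1 with Cpa3. Of the 10 genes, 7 had a promoter in the table and 6 of those 7 held such a hexamer, as did 29.8% of all 32851 promoters of that length. TATAAA on the gene's strand was found in 4 of the 7 and in 8.32% of all promoters. A match of letters is not a measured binding site, and nothing about a factor is drawn from it.

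The array medians over all genes ran from 4.17 to 4.31. Serrated replicate 1 stood apart from the others, with a standard deviation (SD) of 1.77 over genes, where the other 7 arrays had 2.00 to 2.13. As a mark for the low end of the scale, the 95th percentile of 1027 olfactory receptor genes lay between 2.75 and 3.91 by array, and was highest on serrated replicate 1. Levels of Mcpt1, Mcpt2, Mcpt4, Tpsb2 and Kit were above that mark on 8 of 8 arrays and those of Tpsab1 on 7. Cpa3 was above it on 5 arrays, Cma1 on 2, Fcer1a on 1 and Ms4a2 on 0 of 8. Values of the last 3 genes are therefore near the limit of what these arrays show.

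The mucosal chymases Mcpt1 and Mcpt2 gave the widest differences of the 10 genes in serrated against K-rasG12D AOM tumors. Both were lowest in the 3 K-rasG12D AOM tumors, higher in all 3 serrated tumors, and split within the LSL AOM group. Only Mcpt2 in serrated against K-rasG12D AOM tumors passed the test among the 10 genes. In bulk tumor RNA, fewer mast cells and less of a transcript in each mast cell cannot be told apart.

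Mcpt1 stood at 6.88, 6.78 and 8.46 in serrated, 3.63, 4.72 and 5.12 in K-rasG12D AOM, and 5.66 and 8.76 in LSL AOM tumors. Every serrated array was above every K-rasG12D AOM array, and the LSL AOM arrays lay on both sides of all 3 serrated arrays. Mcpt1 averaged 7.37 ± 0.94 in serrated (SD, n = 3), 4.49 ± 0.77 in K-rasG12D AOM (SD, n = 3) and 7.21 ± 2.19 in LSL AOM tumors (SD, n = 2). In limma, the log2 difference of serrated minus K-rasG12D AOM tumors was 2.88 ± 0.78 (standard error, SE; adjusted p = 0.0626), which did not pass the threshold of 0.05. Serrated minus LSL AOM tumors gave 0.16 ± 0.87 (adjusted p = 0.938), with a 95% interval from -1.81 to 2.13 that leaves room for a change of either sign.

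Mcpt2 stood at 6.46, 6.84 and 8.01 in serrated, 2.97, 3.90 and 4.30 in K-rasG12D AOM, and 4.97 and 8.10 in LSL AOM tumors. The order of arrays was close to that of Mcpt1, with the K-rasG12D AOM arrays lowest and serrated replicate 3 and LSL AOM replicate 2 highest. The means were 7.10 ± 0.81 (SD, n = 3) in serrated, 3.72 ± 0.68 (SD, n = 3) in K-rasG12D AOM and 6.53 ± 2.21 (SD, n = 2) in LSL AOM tumors. Mcpt2 was 10.4-fold higher in serrated than in K-rasG12D AOM tumors, a log2 difference of 3.38 ± 0.75 (limma adjusted p = 0.0326). Against LSL AOM tumors the difference was 0.57 ± 0.83 (adjusted p = 0.744), and against both AOM groups, weighted equally, it was 1.98 ± 0.67 (adjusted p = 0.104).

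**Figure D1:**
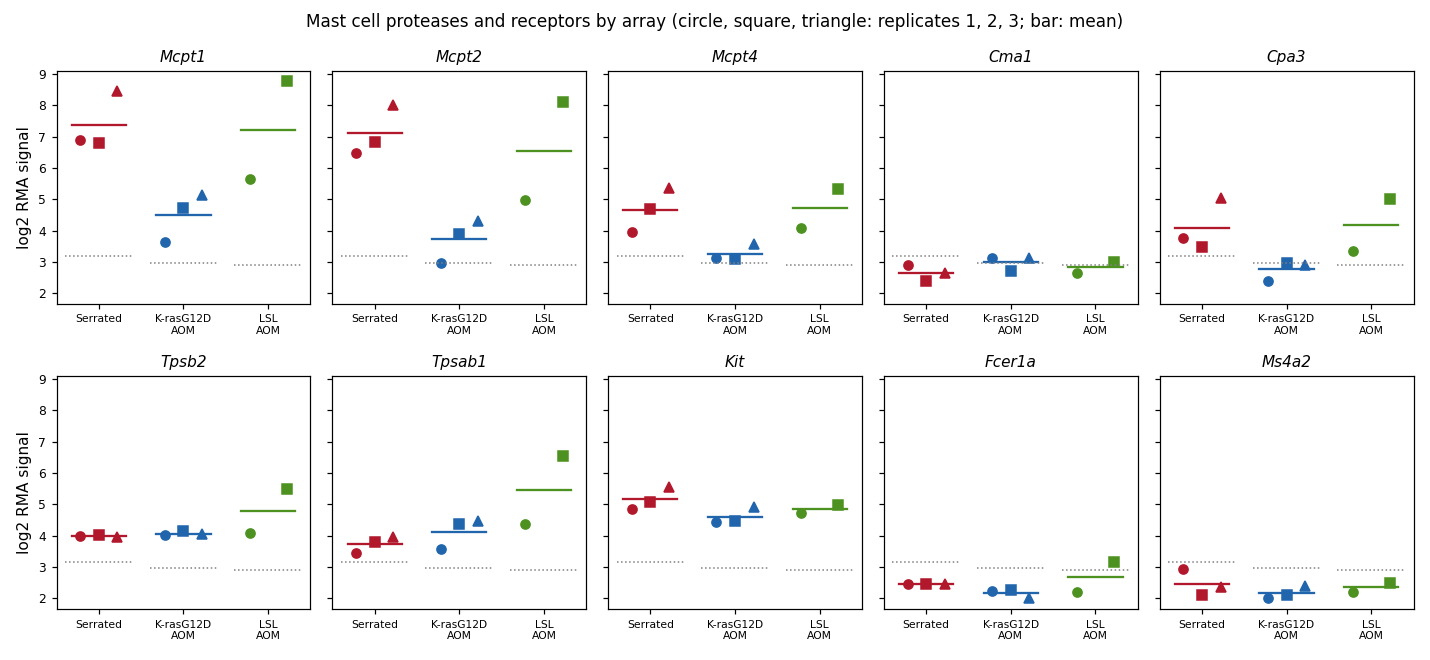
Log2 RMA signal (vertical axis) of each of the 10 genes in serrated, K-rasG12D AOM and LSL AOM tumors, 1 point for each array, with a bar for the group mean and a dotted line for the group's median of the 95th percentile of olfactory receptor genes. Mcpt1 and Mcpt2 are lowest in the 3 K-rasG12D AOM arrays, and Tpsb2 and Tpsab1 are highest on LSL AOM replicate 2.

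The Mcpt2 call depended on single arrays. With each of the 8 arrays left out in turn, the log2 difference of serrated minus K-rasG12D AOM tumors stayed between 2.93 and 3.70, and the limma adjusted p ran from 0.0109 to 0.114. It passed 4 of 8 times. The fits without LSL AOM replicate 1 and without replicate 2 were among these, and they gave the same difference and error. It did not pass without serrated replicate 2 (adjusted p = 0.100), K-rasG12D AOM replicate 1 (0.114), replicate 2 (0.109) or replicate 3 (0.0622). Without serrated replicate 1, the array that stood apart, the difference was 3.70 (adjusted p = 0.0351). Without either LSL AOM array the spread came from the other 2 groups only, and Mcpt1 passed as well (2.88, adjusted p = 0.0275). With all 8 arrays, the spread shared by the groups includes the wide gap between the LSL AOM arrays.

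**Figure D2:**
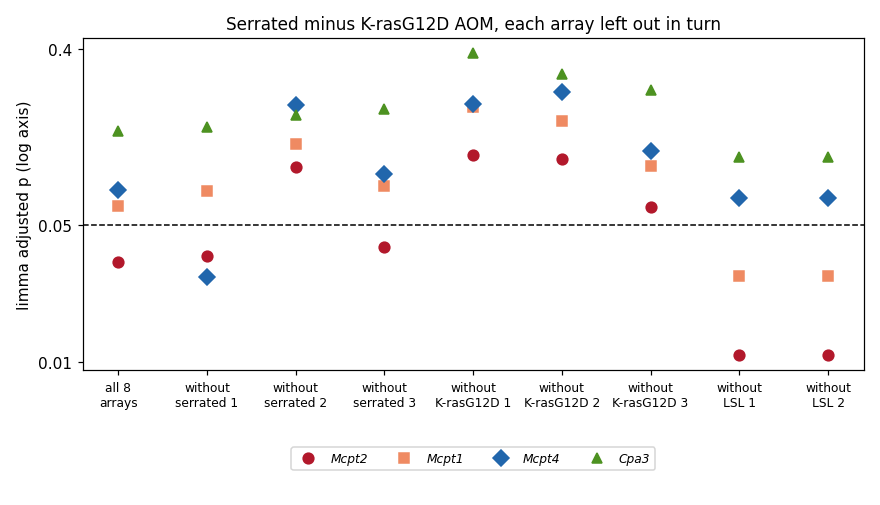
Limma adjusted p (log axis) of serrated minus K-rasG12D AOM tumors for Mcpt2, Mcpt1, Mcpt4 and Cpa3 with all 8 arrays and with each left out in turn; the dashed line marks 0.05. Mcpt2 lies below the line with all arrays and in 4 of the 8 repeats, and Cpa3 lies above it in all 8.

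Among the proteases of connective tissue mast cells, Mcpt4 and Cpa3 varied as the mucosal chymases did, over a smaller range, and Cma1 stayed near the low end. Mcpt4, a chymase, stood at 3.96, 4.68 and 5.36 in serrated, 3.13, 3.09 and 3.56 in K-rasG12D AOM, and 4.09 and 5.34 in LSL AOM tumors. All 3 serrated arrays and both LSL AOM arrays were above the 3 K-rasG12D AOM arrays. The log2 difference of serrated minus K-rasG12D AOM tumors was 1.40 ± 0.40 (adjusted p = 0.0755) with all arrays. With each array left out it lay between 1.06 and 1.76, with adjusted p from 0.0271 to 0.240, and it passed 1 of 8 times, without serrated replicate 1.

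Cpa3, the carboxypeptidase that is stored with chymases in the granule, stood at 3.75, 3.48 and 5.03 in serrated, 2.40, 2.97 and 2.91 in K-rasG12D AOM, and 3.35 and 5.01 in LSL AOM tumors. The serrated arrays were again all above the K-rasG12D AOM arrays, and 1 array each of the serrated and LSL AOM groups reached about 5. The difference of serrated minus K-rasG12D AOM tumors was 1.33 ± 0.49 (adjusted p = 0.153), and 0.86 (adjusted p = 0.198) without serrated replicate 3. Serrated minus LSL AOM tumors gave -0.09 ± 0.55 for Cpa3 (adjusted p = 0.946) and -0.05 ± 0.45 for Mcpt4 (adjusted p = 0.965). Cpa3 was above the low-end mark on 2 of 3 serrated, 1 of 3 K-rasG12D AOM and 2 of 2 LSL AOM arrays.

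Cma1, which mast cells of connective tissue are known to carry together with Cpa3, stood at 2.90, 2.38 and 2.66 in serrated, 3.14, 2.69 and 3.11 in K-rasG12D AOM, and 2.64 and 3.01 in LSL AOM tumors. The 3 groups overlapped, and the levels were at or near the mark of olfactory receptor genes. Serrated minus K-rasG12D AOM tumors gave -0.34 ± 0.21 (adjusted p = 0.395), opposite in sign to the other chymases.

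The tryptase genes Tpsb2 and Tpsab1 had another pattern: they were high on LSL AOM replicate 2 alone. Tryptases are serine proteases that cleave after basic residues, though Tpsab1 is listed as a transcribed pseudogene. Tpsb2 stood at 3.98, 4.03 and 3.96 in serrated, 4.02, 4.16 and 4.05 in K-rasG12D AOM, and 4.07 and 5.49 in LSL AOM tumors. Without LSL AOM replicate 2 the other 7 arrays of Tpsb2 lay between 3.96 and 4.16. Tpsab1 stood at 3.45, 3.81 and 3.95 in serrated, 3.56, 4.37 and 4.48 in K-rasG12D AOM, and 4.36 and 6.55 in LSL AOM tumors. For both genes the serrated arrays lay below both LSL AOM arrays and overlapped with the K-rasG12D AOM arrays.

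Serrated minus LSL AOM tumors gave -0.79 ± 0.35 for Tpsb2 (adjusted p = 0.240) and -1.72 ± 0.56 for Tpsab1 (adjusted p = 0.116), neither of which passed. Against K-rasG12D AOM tumors the differences were -0.08 ± 0.31 (adjusted p = 0.892) and -0.40 ± 0.50 (adjusted p = 0.673). Both genes passed without LSL AOM replicate 1, when replicate 2 alone stood for its group: -1.50 for Tpsb2 (adjusted p = 0.0295) and -2.81 for Tpsab1 (adjusted p = 0.0277) against LSL AOM. The lone array is assumed there to vary like the other groups. Without replicate 2 the differences were -0.086 for Tpsb2 and -0.62 for Tpsab1.

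Of the receptor genes, Kit was the one that was measured clearly above the low end. It stood at 4.85, 5.08 and 5.56 in serrated, 4.45, 4.46 and 4.92 in K-rasG12D AOM, and 4.74 and 4.99 in LSL AOM tumors. The serrated arrays overlapped with both AOM groups, and the differences were 0.55 ± 0.23 against K-rasG12D AOM tumors (adjusted p = 0.200) and 0.30 ± 0.25 against LSL AOM tumors (adjusted p = 0.563). After quantile normalization Kit passed against K-rasG12D AOM tumors (0.69, adjusted p = 0.0404). Kit is also known from interstitial cells of Cajal, the pacemaker cells of gut muscle, and from secretory cells of the colon crypt.

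Fcer1a, the chain that binds IgE, stood at 2.46, 2.45 and 2.46 in serrated, 2.24, 2.28 and 2.03 in K-rasG12D AOM, and 2.22 and 3.18 in LSL AOM tumors. LSL AOM replicate 2 was the 1 array above the low-end mark. Ms4a2, the signal-amplifying beta chain, stood at 2.95, 2.11 and 2.36 in serrated, 2.00, 2.10 and 2.40 in K-rasG12D AOM, and 2.21 and 2.50 in LSL AOM tumors, below the mark on every array. The largest difference of these 2 genes in the comparisons of serrated tumors was 0.31 ± 0.24 (Ms4a2 against K-rasG12D AOM tumors, adjusted p = 0.496).

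Over the 10 genes, 1 passed in serrated against K-rasG12D AOM tumors, where 6.45% of all genes passed in either direction and 2.46% were higher. In serrated against all AOM tumors 0 of 10 passed, beside 9.38% of all genes, and against LSL AOM tumors 0 of 10, beside 5.71%. At an unadjusted p under 0.05, limma gave 5 of 10 against K-rasG12D AOM tumors (21.8% of all genes), 2 of 10 against all AOM tumors (24.7%) and 2 of 10 against LSL AOM tumors (20.3%). Arrays did not overlap, with serrated higher, for 5 of 10 genes against K-rasG12D AOM tumors (Mcpt1, Mcpt2, Mcpt4, Cpa3 and Fcer1a), beside 12.0% of all genes. With serrated lower than LSL AOM tumors they were 2 of 10 (Tpsb2 and Tpsab1), beside 17.4%. Fcer1a, counted above, was not over the low-end mark on any serrated or K-rasG12D AOM array. The 10 genes were chosen with earlier results of these data known, so these counts beside all genes are descriptions and not tests. Mcpt1, Mcpt2, Mcpt4 and Cpa3 varied together and do not count as independent of each other.

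The median log2 difference of the 10 genes was 0.43 against K-rasG12D AOM tumors, where that of all genes was 0.05. It was 0.32 against all AOM tumors (all genes 0.04) and -0.07 against LSL AOM tumors (all genes 0.04). The genes were also more variable than most, with a median SE of 0.36 against K-rasG12D AOM tumors beside 0.22 over all genes. These 3 comparisons share the serrated arrays and are not independent of each other. Since the genes were chosen with earlier results known, their median beside that of all genes is a description only.

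Between the 2 AOM groups, which shared tumor type and colon segment, Mcpt1, Mcpt2, Mcpt4 and Cpa3 had lower levels on every K-rasG12D AOM array than on either LSL AOM array, and 0 of the 10 genes passed. Mcpt2 differed by -2.81 ± 0.83 (adjusted p = 0.384), Mcpt1 by -2.72 ± 0.87 (adjusted p = 0.410), Mcpt4 by -1.45 ± 0.45 (adjusted p = 0.392) and Cpa3 by -1.42 ± 0.55 (adjusted p = 0.521). Arrays of these 4 genes did not overlap, beside 15.7% of all genes that were lower without overlap. In this comparison 0 of 19938 genes passed in limma (0%), while 8.36% of all genes, and 5 of the 10, had an unadjusted p under 0.05. The median of the 10 genes was -1.01, against 0.01 over all genes. Here too the genes were chosen with earlier results known, so these shares and medians are no test of the set. The size of all 4 differences depended on the LSL AOM arrays. Without replicate 2 they were -1.24 for Mcpt2, -1.17 for Mcpt1, -0.83 for Mcpt4 and -0.59 for Cpa3, and without replicate 1 they were -4.38, -4.27, -2.08 and -2.25 for the same genes.

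**Figure D3:**
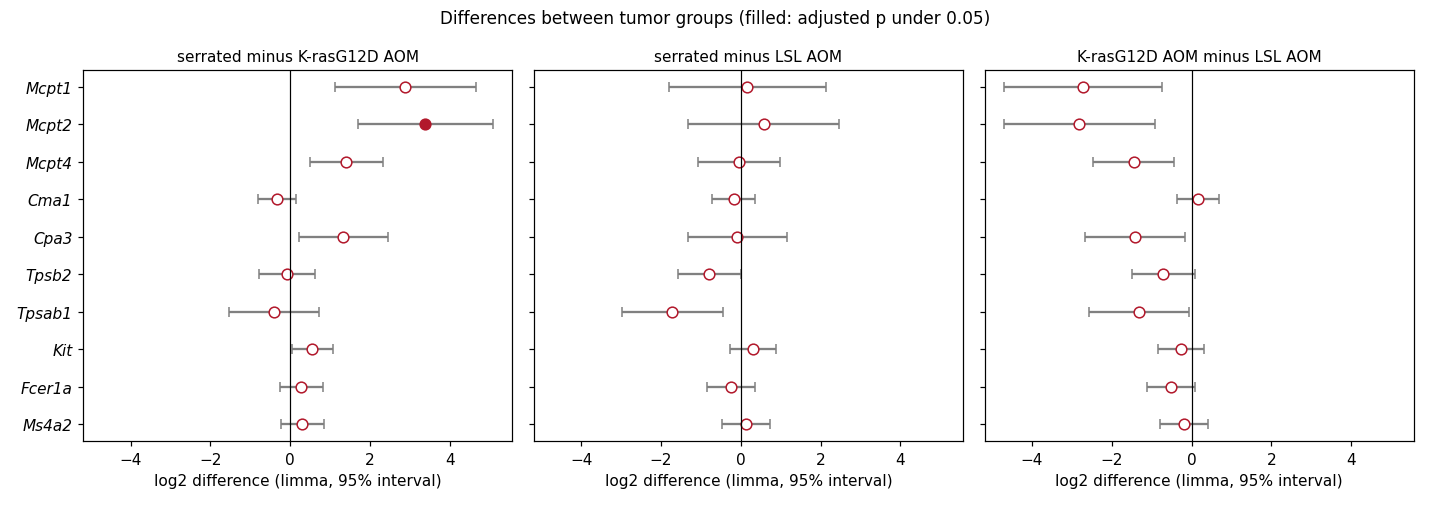
Log2 differences with 95% intervals from limma for the 10 genes in serrated minus K-rasG12D AOM, serrated minus LSL AOM and K-rasG12D AOM minus LSL AOM tumors; a filled point has an adjusted p under 0.05. Mcpt2 at 3.38 in the first panel is the only filled point, and Mcpt1, Mcpt2, Mcpt4 and Cpa3 lie to the right of 0 in the first panel and to the left in the third.

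LSL AOM replicate 2 had the highest Mcpt1, Mcpt2, Tpsb2 and Tpsab1 of the 8 arrays. Against LSL AOM replicate 1, of the same label, it was higher by 3.13 for Mcpt2, 3.10 for Mcpt1, 2.19 for Tpsab1, 1.66 for Cpa3, 1.41 for Tpsb2, 1.24 for Mcpt4 and 0.96 for Fcer1a on the log2 scale. For Kit, Cma1 and Ms4a2 the gap was 0.25, 0.37 and 0.29. The SD of this gap over all genes was 0.40, and 0.0301% of all genes had one at least as high as Mcpt2. This is a difference between 2 tumors, and it has no replicate check.

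Serrated replicate 3 was the serrated array with the highest Mcpt1, Mcpt2, Mcpt4 and Cpa3. LSL AOM replicate 2 minus serrated replicate 3 gave 0.30 for Mcpt1, 0.09 for Mcpt2, -0.03 for Mcpt4 and -0.02 for Cpa3, small beside the SD of 0.73 over all genes. The same 2 arrays differed by 2.59 in Tpsab1 and 1.53 in Tpsb2. The array with high tryptase levels was thus LSL AOM replicate 2, while Mcpt1, Mcpt2, Mcpt4 and Cpa3 were about as high on serrated replicate 3. Over the 8 arrays Pearson's r was between 0.93 and 0.99 for the 6 pairs among Mcpt1, Mcpt2, Mcpt4 and Cpa3, and 0.94 for Tpsb2 with Tpsab1. These are descriptions of 8 arrays in 3 groups, and LSL AOM replicate 2 has the highest or next to highest value of each gene.

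Genes whose levels were most like the mean of the 10 were sought among 3888 genes with an SD over the arrays of at least 0.5. Tradd (r = 0.78 over 8 arrays), Krt35 (0.78), Ckb (0.77), Selenom (0.75), Arfgef3 (0.75), Dio1 (0.74), Pkdcc (0.73) and Hsd11b2 (0.73) came first. For Mcpt2 they were Tradd (0.88), Pkdcc (0.86) and Pycard (0.85), and for Mcpt1 the same genes, at 0.84, 0.81 and 0.82. For Cpa3 they were Ckb (0.82), Dio1 (0.79) and Arfgef3 (0.77), and for Kit Atp2c2 (0.96), Cyp4f40 (0.95) and Arfgef3 (0.94). None of these came as close to Mcpt1 or Mcpt2 as Mcpt1, Mcpt2, Mcpt4 and Cpa3 came to each other. Tradd stood at 6.97, 7.23 and 7.37 in serrated, 6.17, 5.78 and 6.44 in K-rasG12D AOM, and 6.96 and 7.14 in LSL AOM tumors, so it shared the low K-rasG12D AOM level and not the gap between the LSL AOM arrays.

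Other genes of mast cell mediators were listed as well. Of 12 measured genes for histamine, lipid mediators, granule matrix and mast cell receptors, 0 rose and 1 fell in serrated against all AOM tumors, beside 9.38% of all genes in either direction. The median log2 difference was 0.10 (all genes 0.04), and 4 of the 12 were at the low end on every array. The gene that fell was Hpgds, the prostaglandin D2 synthase of haematopoietic cells, at 4.47, 3.54 and 3.93 in serrated, 6.33, 6.27 and 5.19 in K-rasG12D AOM, and 5.12 and 4.76 in LSL AOM tumors. The difference was -1.45 ± 0.31 (adjusted p = 0.0236), and it did not pass without serrated replicate 2, K-rasG12D AOM replicate 1 or 2, or either LSL AOM array (adjusted p from 0.0528 to 0.109). Hdc, which makes histamine, stood at 4.03, 3.38 and 3.22 in serrated, 4.94, 6.30 and 4.98 in K-rasG12D AOM, and 3.84 and 5.99 in LSL AOM tumors. Serrated replicates 2 and 3 were the lowest of the 8 arrays in Hdc, and LSL AOM replicate 2 was among the highest (serrated against all AOM tumors -1.62 ± 0.50, adjusted p = 0.0813). Alox5, which starts leukotriene synthesis, differed by 0.77 ± 0.26 (adjusted p = 0.0991), and by 0.88 ± 0.28 against K-rasG12D AOM tumors (adjusted p = 0.105).

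Signalling genes downstream of the IgE receptor, which many leukocytes share, were measured for 14 genes. Of these 0 rose and 2 fell in serrated against all AOM tumors (median -0.21), beside 9.38% of all genes in either direction. Vav1, an exchange factor of blood cells, stood at 4.07, 3.97 and 3.78 in serrated, 5.28, 4.88 and 5.10 in K-rasG12D AOM, and 5.14 and 5.52 in LSL AOM tumors. Its difference was -1.26 ± 0.17 (adjusted p = 0.00308), and it passed with each of the 8 arrays left out. Plcg1, a phospholipase of many cell types, fell by 1.11 ± 0.19 (adjusted p = 0.0102, and 0.0604 without serrated replicate 2). Fyn differed by -1.02 ± 0.28 (adjusted p = 0.0532). Fcer1g, the gamma chain that IgE receptors share with other Fc receptors, was looked at after its values were seen and differed by -0.98 ± 0.28 (adjusted p = 0.0622).

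Of 16 genes for growth and recruitment of mast cells, 0 passed in either direction in serrated against all AOM tumors (median 0.11), and 5 of them, the cytokines Il3, Il4, Il9, Il10 and Tslp, were at the low end on every array. Tgfb1, a factor known to induce Mcpt1 in cultured mast cells, differed by -0.90 ± 0.28 (adjusted p = 0.0803), and by -1.24 ± 0.31 against K-rasG12D AOM tumors, just under the threshold (adjusted p = 0.04996, passing 1 of 8 times when an array was left out). Itgb6, a subunit of the integrin that activates that factor, differed by 0.48 ± 0.18 (adjusted p = 0.132), and Il9 by 0.42 ± 0.21 (adjusted p = 0.250). Of 9 transcription factors of mast cells 0 passed, and Gata1 and Mitf were at the low end on every array. Spi1 differed by -0.55 ± 0.19 (adjusted p = 0.111), Gata1 by 0.29 ± 0.16 (adjusted p = 0.304).

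Markers of other cells were set beside the proteases. Of all genes, 9.38% passed in either direction in serrated against all AOM tumors, and 6.45% against K-rasG12D AOM tumors. In serrated against all AOM tumors, 5 of 6 macrophage genes fell and 0 rose, with mean levels of the list of 4.93 to 5.74 in serrated, 6.09 to 6.70 in K-rasG12D AOM and 6.27 to 6.98 in LSL AOM tumors. Lyz2 fell by 2.67 ± 0.45 (adjusted p = 0.00908, passing with each array left out) and C1qa by 1.21 ± 0.21 (adjusted p = 0.0103, and 0.0559 without serrated replicate 2). Of 6 genes that all leukocytes share, 0 passed, with list means of 5.07 to 5.99, 5.56 to 6.29 and 5.63 to 5.90 in the same order of groups. In serrated against K-rasG12D AOM tumors, where Mcpt2 passed, 0 of these 6 genes passed and their median log2 difference was -0.62. The part of other leukocytes in the levels of the mast cell genes was not tested.

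Of 6 neutrophil genes, 0 passed against all AOM tumors and 2 fell in serrated against K-rasG12D AOM tumors. In the latter comparison 6.45% of all genes passed in either direction. The list means were 3.87 to 4.32 in serrated, 4.65 to 5.43 in K-rasG12D AOM and 3.78 to 4.33 in LSL AOM tumors. The K-rasG12D AOM arrays were the highest of the 8 in this list mean and the lowest in Mcpt1 and Mcpt2. Not every gene of the list went this way. Mpo averaged 3.18 in serrated and 2.79 in K-rasG12D AOM tumors, and Elane 2.74 and 2.66. Mpo was above the low-end mark on 1 of 8 arrays and Elane on 0. S100a8 fell by 2.13 ± 0.38 against K-rasG12D AOM tumors (adjusted p = 0.0151, and over 0.05 without serrated replicate 2 or K-rasG12D AOM replicate 2 or 3). Of 4 basophil genes and 5 eosinophil genes 0 passed, and 3 and 4 of them were at the low end on every array, among them Mcpt8, Prss34, Epx and Prg2. Of 6 genes of type 2 lymphocytes and of 7 cytotoxic lymphocyte genes 0 passed, with Gata3 at 1.20 ± 0.42 (adjusted p = 0.115).

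Of 7 epithelial genes 2 rose and 0 fell in serrated against all AOM tumors, beside 9.38% of all genes in either direction. The list means were 9.92 to 9.97 in serrated, 9.02 to 9.20 in K-rasG12D AOM and 9.07 to 9.10 in LSL AOM tumors. Cdx2, an intestinal transcription factor, rose by 2.56 ± 0.27 (adjusted p = 0.00130). Krt20, which also rose, averaged 10.22 in serrated, 7.56 in K-rasG12D AOM and 7.82 in LSL AOM tumors. The median log2 difference of the 7 genes was 0.28 (all genes 0.04) and the lowest was -0.01. The list means were thus set mostly by Cdx2 and Krt20. Of 6 fibroblast genes 3 fell, with Col1a1 at -1.47 ± 0.29 (adjusted p = 0.0161, and 0.0793 without serrated replicate 2). Of 6 smooth muscle and 5 endothelial genes 0 passed. The fibroblast, smooth muscle and endothelial list means were lower on LSL AOM replicate 2 (7.44, 5.21 and 4.50) than on replicate 1 (8.64, 6.30 and 5.08). The epithelial mean was about the same on both (9.07 and 9.10), while the proteases were higher on replicate 2.

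Other cells that carry Kit or type 2 signals were listed as well. Of 5 genes of interstitial cells of Cajal 1 rose and 0 fell in serrated against all AOM tumors. In that comparison 9.38% of all genes passed in either direction. Edn3, an endothelin, rose by 2.59 ± 0.24 (adjusted p = 0.000703, passing with each array left out). The median log2 difference of the 5 genes was -0.49 (all genes 0.04), and the lowest was -1.36. Ano1 and Etv1, which define these cells, did not pass. Ano1 differed by -0.58 ± 0.23 (adjusted p = 0.166) and Etv1 by 1.07 ± 0.37 (adjusted p = 0.113). Of 4 genes of deep crypt secretory cells 0 passed, with list means of 8.31 to 9.70 in serrated, 7.91 to 9.30 in K-rasG12D AOM, and 8.67 and 9.40 in LSL AOM replicates 1 and 2. Their part in the levels of Kit was not tested. Of 8 tuft cell genes 1 rose, the channel Trpm5, by 0.81 ± 0.20 (adjusted p = 0.0360), and it passed 1 of 8 times when an array was left out.

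**Figure D4:**
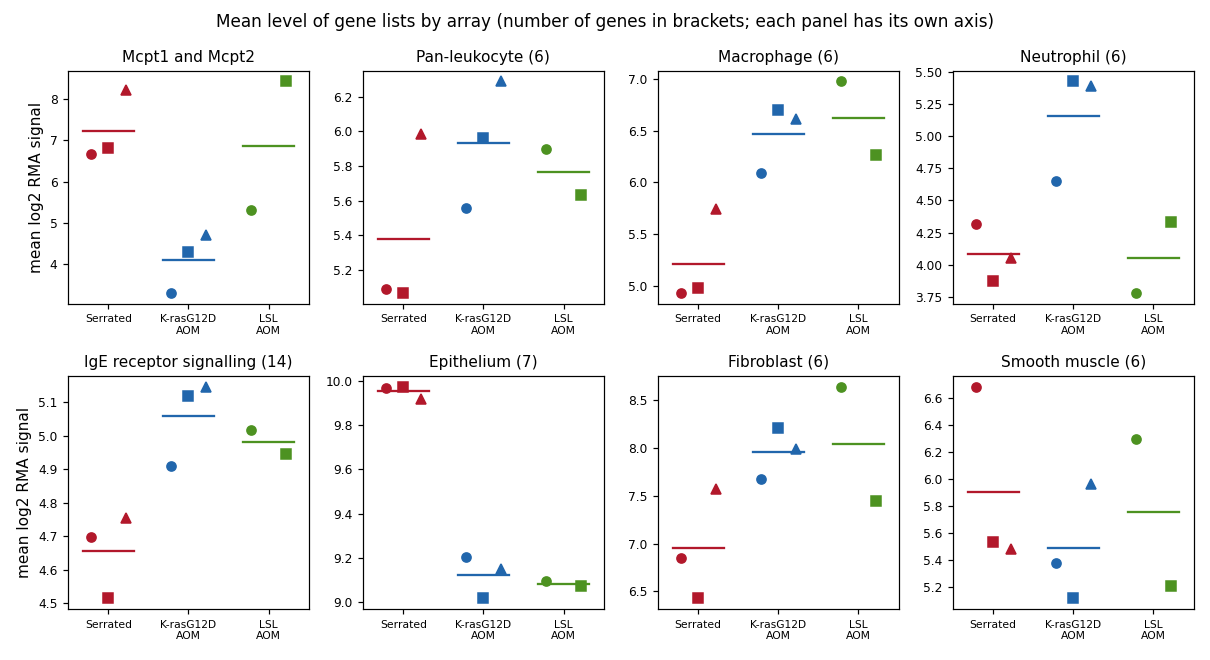
Mean log2 RMA signal by array (vertical axes, a scale of its own in each panel) for Mcpt1 with Mcpt2 and for lists of other cell types, in serrated, K-rasG12D AOM and LSL AOM tumors, with bars for group means. The Mcpt1 and Mcpt2 mean is 3.30 to 4.71 in K-rasG12D AOM arrays, below all others, while the neutrophil list is highest in those arrays and the macrophage list is lowest in the serrated arrays.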

How the data were processed

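The deposited values are log2 signals that the authors made with GCOS and RMA, per the submitters' processing notes; their versions and settings are not given in the sources used here. For the arrays, RNA came from Qiagen RNeasy extractions, per the labels' protocols. No transformation was added. Of 35557 probe sets, 21789 carried exactly 1 symbol in the platform annotation, and the row with the highest mean was kept for the 999 genes with several, which left 19938 genes. Groups were taken from the genotype labels, and 0 columns were unmapped.

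Contrasts came from 1 limma 3.58.1 fit (R 4.3.3) of 3 group means to all 8 arrays (5 residual degrees of freedom), with Benjamini-Hochberg adjustment over all genes and 0.05 as threshold. All p-values are from limma. Errors beside differences are SE, those beside levels SD. The labels do not say that samples came from separate animals, so the p-values reflect the spread among these arrays, part of which may be technical.

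The 10 genes, the 18 other lists and the tests were chosen with earlier results of these data known. Of 149 list genes 142 were measured. Named are the 10 genes, up to 3 genes of each other list by smallest adjusted p in serrated against all AOM tumors, and the genes of highest Pearson r over 8 arrays (8 for the mean of the 10 genes, each centred on its mean, and 3 each for Mcpt1, Mcpt2, Cpa3 and Kit). Genes at the low end are named as such. The alternatives were quantile normalization, median centring, the mean over probe sets, leaving out the dimmest 40% of genes, a variance trend, a robust prior, array weights, only the groups compared, and each array left out in turn.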

Additional observations from a re-analysis of the deposited data

Results flagged for a closer look

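Among the 5 AOM arrays, 2 of the 10 genes had a highest value that stood far from the rest of them. Tpsb2 was 5.49 on LSL AOM replicate 2, and its gap to the next AOM array was 0.904 of the whole range of those arrays. Fcer1a was 3.18 on the same array, with a gap of 0.782 of the range. Dixon's 95% critical value for 5 samples is 0.710, and chance flags about 1 in 20 groups, with 10 genes looked at. The 5 arrays pooled the K-rasG12D AOM and LSL AOM groups, so that rate may not hold for them. Tpsab1 came close, at 0.694. The groups of 3 serrated, 3 K-rasG12D AOM and 2 LSL AOM arrays are too small for this rule.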

How the results depend on the processing

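No paired analysis was possible because the sample titles carry a different number for every sample, so the groups share no replicate number. The count of the 10 genes that passed was 0 for serrated against all AOM tumors, 5 with array weights (Mcpt2, Mcpt4, Cma1, Tpsab1 and Kit), and 0 to 2 with an array left out. Against K-rasG12D AOM tumors the count for serrated tumors was 1, 2 with quantile normalization (Mcpt2 and Kit), 3 without the dimmest genes (Mcpt1, Mcpt2 and Mcpt4), 2 with a variance trend (Mcpt1 and Mcpt2), 6 with array weights, 2 with only the groups compared (Mcpt1 and Mcpt2), and 0 to 2 with an array left out. For serrated against LSL AOM tumors it was 0, 1 with array weights (Tpsab1), and 0 to 2 with an array left out. Between the AOM groups it was 0 under every alternative run. Mcpt2 against all AOM tumors passed without LSL AOM replicate 2 (2.76, adjusted p = 0.0214), and Tpsb2 and Tpsab1 without replicate 1 (-0.79, adjusted p = 0.0327, and -1.60, adjusted p = 0.0228). Array weights put 25.6 on serrated replicate 2 and 0.168 on replicate 1, so that fit leans on 1 serrated array. Whether these weights converged was not checked. The share of all genes that passed under each alternative is not given here, so the counts above have no background beside them.

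Of 618 values of the 10 genes under the alternatives, 568 kept their sign and side of the threshold, 24 came to pass, 4 no longer passed and 22 changed sign, none of which passed. Against all AOM tumors, Fcer1a (0.02) was -0.12 with quantile normalization, -0.22 to 0.26 with an array left out, and Ms4a2 (0.21) was -0.11 with array weights and -0.026 to 0.39 with an array left out. Against K-rasG12D AOM tumors, Tpsb2 (-0.08) was 0.0057 with median centring. Against LSL AOM tumors, Ms4a2 (0.12) was -0.053 with quantile normalization, -0.23 with array weights and -0.12 to 0.30 with an array left out, and Mcpt1 (0.16) was -0.41 with array weights. With an array left out, Mcpt1 ran from -1.39 (without LSL AOM replicate 1) to 1.71 (without replicate 2), Mcpt2 (0.57) from -0.99 to 2.14, Cpa3 (-0.09) from -0.92 to 0.74, Mcpt4 (-0.05) from -0.67 to 0.57, Cma1 (-0.18) from -0.37 to 0.0036 and Fcer1a (-0.24) from -0.71 to 0.24, each with the same 2 arrays at its ends. Between the AOM groups, Cma1 (0.16) ran from -0.032 to 0.34. The cause of these changes was not tested. Median centring moved the median of all genes to 0.10 against all AOM and 0.14 against K-rasG12D AOM tumors, from 0.04 and 0.05. Leaving out the dimmest genes also removed Cma1, Fcer1a and Ms4a2, and 11963 genes stayed. The list genes that passed numbered 15, 14 and 8 in the comparisons of serrated tumors with all AOM, K-rasG12D AOM and LSL AOM tumors, against 73, 79 and 46 with array weights.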
